A study of Mus musculus with 4 samples.

Results

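The phagocyte NADPH oxidase was followed through 5 of its genes, Cybb, Cyba, Ncf1, Ncf4 and Rac2, in bone marrow preproB cells with and without an enhancer of Cebpa, which encodes C/EBPα, a transcription factor of myeloid cells. The genes were chosen by name as parts of 1 enzyme, and every probe that carried one of these names was used. This gave 6 probes for 5 genes, of 39429 probes for 31660 gene names on the array. All 6 probes were well above background on 4 of 4 arrays, and all 5 genes passed the filter on dim probes and were tested.

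RNA came from cells sorted out of C57BL/6 marrow as lineage-negative, B220-positive and CD43-positive, without BP1 and CD24, a gate for an early B-lineage stage. All mice carried loxP sites around the enhancer 37 kb from Cebpa (Enh f/f) and received 3 doses of pIpC, an RNA mimic that induces interferon. Marrow was taken 5 weeks later. The EnhDel group (n = 2 samples, both labelled male, 24 weeks) also carried Mx1-Cre, a recombinase driven by an interferon-responsive promoter that is active in many blood and other cells, and the control group (n = 2 samples) had no Cre. Control replicate 1 was labelled female and 26 weeks old, control replicate 2 male and 24 weeks old. Cre and the loss of the enhancer therefore cannot be told apart, and a p-value reflects only how far these 4 samples lie apart. Each RNA was read on 1 Agilent array in 1 colour, and 59.6% to 64.9% of probes per array were well above background.

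The oxidase moves electrons from NADPH in the cytosol across a membrane to oxygen and so makes superoxide. Cybb encodes gp91phox, the catalytic subunit that holds the haems and the flavin, and Cyba encodes p22phox, its membrane partner. In resting cells the cytosolic subunits, among them p47phox (Ncf1) and p40phox (Ncf4), stay apart from the membrane pair. On stimulation p47phox is phosphorylated and binds p22phox, p40phox binds a phosphoinositide of the phagosome membrane, and a Rac GTPase in its GTP form, mainly Rac2 in blood cells, joins them. Neutrophils and monocytes are the best known users of this enzyme, and B cells and dendritic cells also express it. Loss of single subunits causes chronic granulomatous disease.

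The probe that crosses an intron of Cyba is shown because Cyba is the only member with more than 1 probe. Both Cyba probes read the same RNA samples on the same arrays, so they share sample and array error. The 60 bases of the intron-crossing probe lie within a span of 269 bases at chr8:124950893-124951161 (mm9, minus strand). The brighter Cyba probe lies in 1 stretch at chr8:124948726-124948785. The sequence of the intron-crossing probe is written in the direction of the transcript.
Cyba intron-crossing probe: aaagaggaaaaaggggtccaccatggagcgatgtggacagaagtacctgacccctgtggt
The Cybb probe lies at chrX:9013216-9013275 (minus strand) and the Ncf1 probe at chr5:134696380-134696439 (minus strand). Ncf4 and Rac2 lie on the same chromosome, with probes at chr15:78092903-78092962 (plus strand) and chr15:78391452-78391511 (minus strand). Exon and intron annotation of build mm9 was not used here.

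The 250 bases before the start site of the members found in the RefSeq promoter table (3 of 5: Cybb, Cyba and Ncf1; assembly GRCm38.p6) are shown because Cebpa, whose product binds DNA at sites near the pattern TTNNGNAA, was the targeted gene. Capitals mark GGAA on either strand, the core that PU.1 and other ETS factors bind. Cybb stands at chrX:9469325-9469574, Cyba at chr8:122432941-122433190 and Ncf1 at chr5:134229626-134229875, all on the minus strand and written 5′ to 3′ along the gene.
Cybb: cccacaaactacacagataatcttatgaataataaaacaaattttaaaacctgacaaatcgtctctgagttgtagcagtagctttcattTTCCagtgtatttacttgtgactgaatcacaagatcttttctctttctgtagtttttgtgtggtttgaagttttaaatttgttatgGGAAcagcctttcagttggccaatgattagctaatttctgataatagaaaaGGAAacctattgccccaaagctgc
Cyba: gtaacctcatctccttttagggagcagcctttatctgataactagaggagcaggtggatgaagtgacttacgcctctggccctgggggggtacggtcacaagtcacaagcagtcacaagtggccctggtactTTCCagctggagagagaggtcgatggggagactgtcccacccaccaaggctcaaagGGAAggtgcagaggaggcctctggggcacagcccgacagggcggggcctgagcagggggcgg
Ncf1: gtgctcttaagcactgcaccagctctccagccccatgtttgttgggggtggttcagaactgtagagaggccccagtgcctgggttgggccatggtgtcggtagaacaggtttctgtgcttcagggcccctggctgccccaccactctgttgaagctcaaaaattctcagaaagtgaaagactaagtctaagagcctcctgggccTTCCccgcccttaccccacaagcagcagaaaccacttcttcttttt
GGAA occurred 3 times in Cybb, 2 times in Cyba and 1 time in Ncf1, and 93.4% of 32536 distinct promoters of this length held it. The longer patterns searched on both strands were GAGGAA (a PU.1 type site, which contains GGAA), TTNNGNAA (a C/EBP type site) and a joint ETS and IRF site, GGAA and then GAAA with 2 bases between them. None of these 3 patterns was in any of the 3 windows; 23.4%, 36.8% and 2.31% of all promoters held them. These letters say nothing about binding elsewhere at the genes.

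The labels were first checked on the arrays. Cebpa, read at its transcript and not at the enhancer, had a processed signal of 1271 and 927 in control samples, against 125 and 287 in EnhDel samples, a log2 difference of -2.41 ± 0.44 (SE, limma, adjusted p = 0.238). The direction of the labels was thus present on every array, although the test over all genes did not pass. Of the gate genes, Ptprc (CD45, whose B220 form was sorted) and Spn (CD43) were well above background on 4 of 4 arrays. Enpep (BP1) was above background on none, and Cd24a was above background on all 4 with a log2 difference of -0.82 ± 0.47 (adjusted p = 0.591). Xist, made from the inactive X chromosome of female cells, was above background only on EnhDel replicate 2, with a signal of 597 against 3.99 to 5.32 on the other arrays. The Y-linked genes Ddx3y, Eif2s3y, Kdm5d and Uty were well above background on all 4 arrays. Their signals were lowest on EnhDel replicate 2; that of Ddx3y was 1560 there and 3116, 3474 and 3624 on control replicates 1 and 2 and EnhDel replicate 1. The sex labels of control replicate 1 and EnhDel replicate 2 were therefore not borne out. Cybb is X-linked, and the members' differences are given without each of these arrays too. Over all genes, log2 differences between the replicates had an SD of 0.611 for EnhDel and 0.333 for control.

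The comparison asked how the transcripts of the oxidase stood in preproB cells after loss of the Cebpa enhancer. All 5 members had a difference above 0, between 1.06-fold and 1.30-fold, and none passed the test. Across all genes, 59.8% of 19394 had a difference above 0 and the median log2 difference was 0.07, against a median of 0.30 for the members. Both EnhDel values lay above both control values for 4 of 5 members, Cybb, Cyba, Ncf1 and Ncf4, and none lay below; over all genes 28.6% lay above, 15.5% below and 44.1% either way. No member of 5 had an adjusted p under 0.05 (limma, Benjamini-Hochberg), where the background was 0% of all genes, and none had an unadjusted p under 0.05, where it was 11.2% (7.23% higher and 3.96% lower). In RNA from sorted cells in bulk, fewer cells of a type and less RNA per cell cannot be told apart. An exact permutation test of 2 arrays against 2 cannot give a two-sided p under 0.333, so the fits across all genes stand here alone.

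Values below are log2 signals relative to the 75th percentile of the same array, and they do not rank 1 gene against another. Cybb, the catalytic gp91phox subunit, stood at 2.84 and 2.72 on control replicates 1 and 2 and at 2.88 and 3.28 on EnhDel replicates 1 and 2. EnhDel replicate 1 lay within 0.04 of the higher control, and the group difference came mainly from EnhDel replicate 2. The log2 difference was 0.30 ± 0.20 (SE), a fold of 1.23 with a 95% interval from 0.84 to 1.79 (limma, adjusted p = 0.646). Without EnhDel replicate 2, the array with Xist, the log2 difference was 0.10, without control replicate 1 it was 0.35, and without EnhDel replicate 1 it was 0.50. Whether the sex-linked signals bear on this value was not tested.

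Cyba, the p22phox partner that anchors the complex, was read by its brighter probe at 5.79 and 5.76 in the controls and at 6.04 and 6.25 in the EnhDel samples. The controls agreed closely and both EnhDel values were higher. The log2 difference of 0.37 ± 0.16 corresponded to 1.30-fold (95% interval 0.96 to 1.75; limma, adjusted p = 0.489). It was 0.27 without EnhDel replicate 2 and 0.39 without control replicate 1. The intron-crossing probe stood at 3.15 and 3.22 on the controls and at 3.22 and 3.76 on the EnhDel arrays. Here the groups overlapped, since EnhDel replicate 1 lay just below control replicate 2. Its log2 difference was 0.30 ± 0.23 (adjusted p over probes = 0.684). The probes of Cyba shared the high value of EnhDel replicate 2 and differed for EnhDel replicate 1.

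Of the cytosolic subunits, Ncf1 encodes p47phox, the organiser that carries the phosphorylation switch. Control values were 3.27 and 3.23, EnhDel values 3.34 and 3.51. These ranges were apart, but the gap of EnhDel replicate 1 to the nearer control was small. The log2 difference was 0.18 ± 0.16, or 1.13-fold (95% interval 0.84 to 1.51; limma, adjusted p = 0.725). Without EnhDel replicate 2 the difference was 0.09, and without control replicate 1 it was 0.19.

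Ncf4 encodes p40phox, which ties the complex to phagosome membranes. Control values were 3.67 and 3.51, and EnhDel values were higher, 3.98 and 3.89. Alone among the members whose groups did not overlap, it was higher on EnhDel replicate 1 than on EnhDel replicate 2. The log2 difference was 0.35 ± 0.16, or 1.28-fold (95% interval 0.95 to 1.71; limma, adjusted p = 0.501). Without EnhDel replicate 2 it was 0.39, and without control replicate 1 it was 0.43.

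Rac2, the GTPase of blood cells that switches the oxidase on, had control values of 6.07 and 6.01 and EnhDel values of 6.20 and 6.05. EnhDel replicate 2 lay between the controls, so the groups overlapped. The log2 difference was 0.09 ± 0.15, or 1.06-fold (95% interval 0.80 to 1.42; limma, adjusted p = 0.864). Leaving out EnhDel replicate 2 gave 0.16, and leaving out control replicate 1 or 2 gave 0.11 or 0.06. Leaving out EnhDel replicate 1 gave 0.0085, which relative to the median of all genes was -0.06. Its probe was printed 10 times per array, and the log2 SD over these spots was 0.02 to 0.04. These spots show the printing and reading error of 1 array, not the spread between samples.

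**Figure D1:**
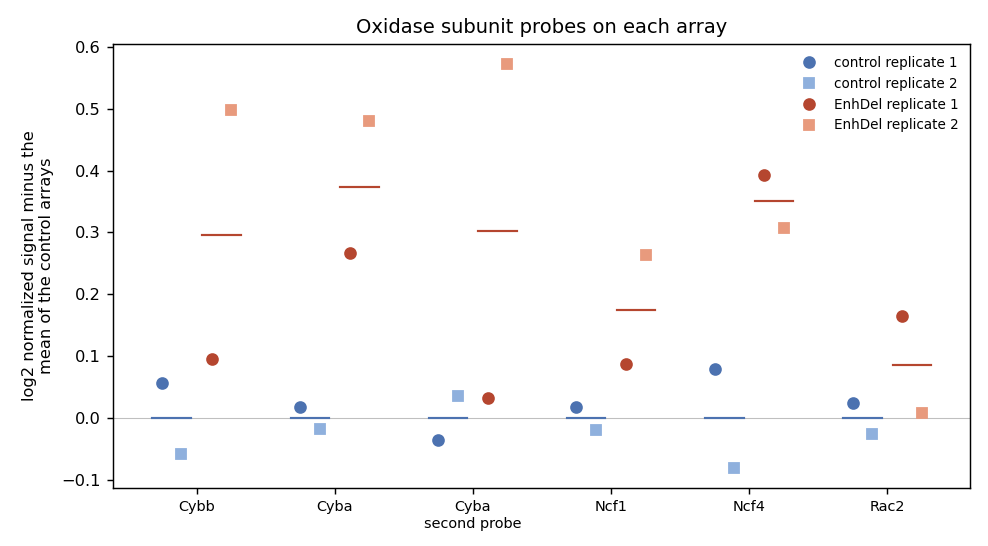
Log2 normalized signal of each member probe on each array, minus the mean of the control arrays (y axis), for 6 oxidase probes (x axis). Points are single arrays and short lines are group means; EnhDel replicate 2 is the highest array for Cybb, both Cyba probes and Ncf1, and EnhDel replicate 1 for Ncf4 and Rac2.

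The size of the members' differences depended on which EnhDel array was read. Relative to the control mean, the 5 members had a median of 0.16 in EnhDel replicate 1 against 0.31 in EnhDel replicate 2, while that of all genes was 0.06 and 0.07. Leaving out EnhDel replicate 2 gave 5 of 5 members above the controls (48.8% of all genes). Leaving out control replicate 1 also gave 5 of 5 (41.1% of all genes). The count was 4 without EnhDel replicate 1 (50.2%) and 4 without control replicate 2 (36%). With fewer arrays groups overlap less often, and the share of all genes was 28.6% with all arrays. With the repaired normexp correction and with the deposited values the count was 3 (29.3% and 14.7%). No member passed the test under any of 15 alternative settings; the lowest adjusted p values were 0.0801 for Cyba and 0.0855 for Cybb, both without EnhDel replicate 1. Differences of Cybb, Cyba and Ncf4 were above 0 in 15 of 15 settings. Those of Ncf1 and Rac2 were above 0 in 13 of 15. They fell below 0 under median scaling and under the unrepaired normexp background correction. The 2 filters, the replicate block and the variance option left all these estimates unchanged, so they could not turn a sign. Nor could leaving out an array turn the sign of a member whose groups did not overlap. Median scaling moved the median of all genes from 0.07 to -0.13. It shifts all genes of an array by the same amount, so the members' place relative to that median could not change. As in the main setting, all 5 members were above it (Ncf1 by 0.11, Rac2 by 0.02), which adds no further result. With the unrepaired normexp correction none of the 5 was above the median of all genes, which was 0.19 there.

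**Figure D2:**
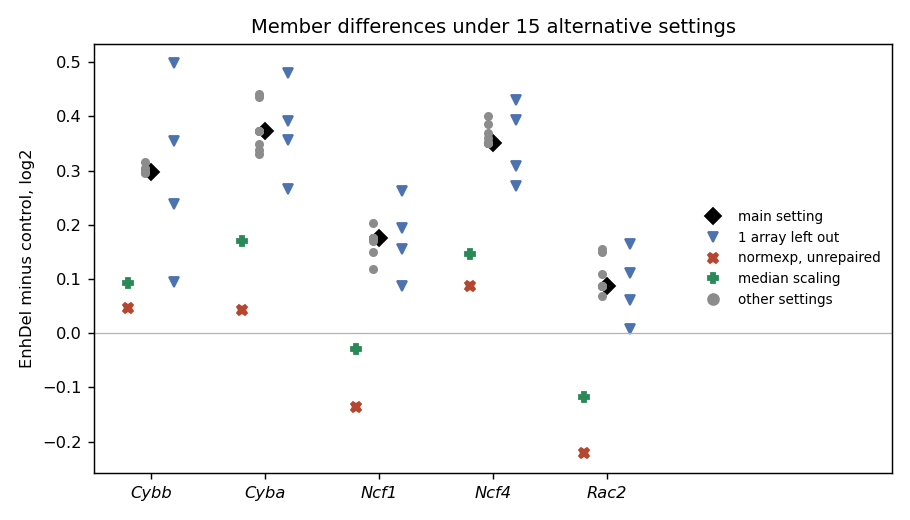
Log2 difference of each member between EnhDel and control (y axis) in the main setting and 15 alternatives (points). Values of Ncf1 and Rac2 fall below 0 with median scaling and unrepaired normexp, and the arrays left out in turn move Cybb between 0.10 and 0.50.

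Among genes of other oxidases and accessory proteins, no adjusted p was under 0.05. Hvcn1, the proton channel that balances the charge the oxidase moves, stood at 5.41 and 5.11 on the controls and at 5.66 and 5.53 on the EnhDel arrays (log2 difference 0.33 ± 0.18, limma, adjusted p = 0.569). Its groups did not overlap, as was so for 44.1% of all genes. Duoxa1, a maturation factor of a dual oxidase, was dim, with signals of 18.0 to 34.7 (0.53 ± 0.30, adjusted p = 0.586). Cybc1, the chaperone that gp91phox needs, differed more between the EnhDel arrays (processed signals of 28288 and 14800.2) than between the groups (0.21 ± 0.40), and its sign turned without EnhDel replicate 1 (-0.31). Nox3, Duox1, Duox2 and Duoxa2 were above background on no array.

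The Rac GTPases other than Rac2 gave no call. Rac1, the widely expressed relative, had signals of 8856 and 10161 on the controls and 8348 and 7246 on the EnhDel arrays (log2 difference -0.18 ± 0.18, adjusted p = 0.757), with overlapping groups after normalization. Rac3 was dim, at 163 and 165 on the controls and 162 and 226 on the EnhDel arrays (0.33 ± 0.20, adjusted p = 0.603).

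**Figure D3:**
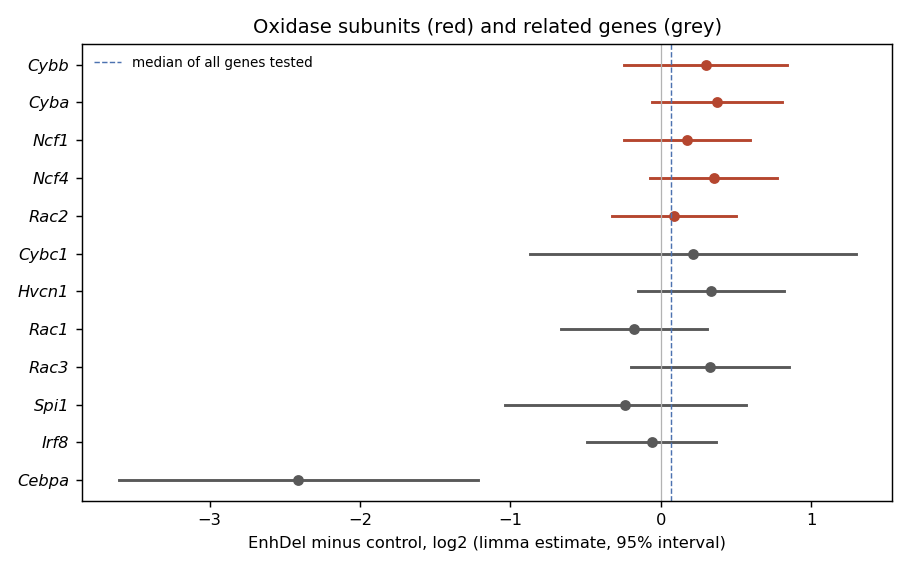
Log2 difference between EnhDel and control with its 95% interval (x axis) for the 5 members in red and 7 related genes in grey; the dashed line is the median of all genes tested. Every member interval includes 0, and the interval of Cebpa lies below 0 before adjustment.

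Genes that load Rac with GTP or hold it inactive gave 6 of 13 above and 7 below 0, with a median of -0.02. Dock1, an exchange factor for Rac, was well above background on both control arrays (signals 49.1 and 42.7) and on no EnhDel array (6.77 and 9.44), at least 3.55-fold lower by the background bound (adjusted p = 0.148). Vav2 had signals of 139 and 182 on the controls and 262 and 249 on the EnhDel arrays (0.79 ± 0.17, adjusted p = 0.293). Vav3 had 276 and 311 against 156 and 215 (-0.57 ± 0.19, adjusted p = 0.405). These exchange factors thus lay on both sides of the controls, and the main exchange factor of blood cells, Vav1, was not among the 3 smallest p of the list.

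Among 16 kinases and lipid enzymes that act on the oxidase, 11 were above and 5 below 0, with a median of 0.11. Pak1, a Rac-activated kinase that phosphorylates p47phox, had signals of 113 and 132 on the controls and 52.1 and 72.7 on the EnhDel arrays (-0.88 ± 0.19, adjusted p = 0.29). Pla2g4a, the cytosolic phospholipase that frees arachidonic acid, had 288 and 367 against 468 and 440.5 (0.59 ± 0.17, adjusted p = 0.377). Prkca, a protein kinase C, had 11543 and 11008 against 14077 and 15036 (0.48 ± 0.16, adjusted p = 0.42). Each of these 3, named for the smallest p of the list, had groups that did not overlap, and no adjusted p passed. Of the 16, 6 lay wholly above and 2 wholly below the controls, against 28.6% and 15.5% of all genes. With median scaling 7 of the 16 were above 0 and 9 below.

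Of 7 tested receptors that act on the oxidase, 3 were above and 4 below 0 (median -0.03). The inhibitory Fc receptor Fcgr2b (-0.20) was among those below 0. Of the list, 5 of 12 did not reach the filter, among them the formyl peptide receptors Fpr1 and Fpr2 on no array. Clec7a, the fungal glucan receptor dectin-1, had signals of 118 and 93.1 on the controls and 13.2 and 26.7 on the EnhDel arrays (-2.37 ± 0.38, adjusted p = 0.212), with 1 of 2 EnhDel arrays well above background. With the unrepaired normexp correction its sign turned (0.37), as did those of Dock1 (0.68), Vav3 (0.07), Pak1 (0.37), Fcgr3 (0.53), Idh1 (0.29), Hvcn1 (-0.10), Sod1 (-0.07), Spi1 (0.65), S100a8 (0.91), S100a9 (0.54) and Mcpt8, a basophil protease (0.96). Itgb2, the integrin chain CD18, was higher on both EnhDel arrays (0.44 ± 0.15, adjusted p = 0.409), and the Fc receptor chain Fcgr3 lower on both (-0.33 ± 0.17, adjusted p = 0.56).

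Enzymes of NADPH supply and linked steps of carbon metabolism lay mostly just below the controls. Of 9 tested, 8 were below 0, with a median of -0.05, and no adjusted p passed. The smallest p belonged to Idh1, the cytosolic isocitrate dehydrogenase (-0.49 ± 0.20, adjusted p = 0.467), Tkt, the transketolase of the pentose phosphate pathway (-0.23 ± 0.15, adjusted p = 0.646), and Idh2, the mitochondrial enzyme (-0.16 ± 0.16, adjusted p = 0.751). Of 20 tested genes of superoxide and peroxide removal or related antioxidant defence, 9 were above and 11 below 0 (median -0.03). The split became 14 and 6 without EnhDel replicate 2, 12 and 8 without control replicate 1, and 4 and 16 without EnhDel replicate 1. With median scaling it was 2 and 18, and with unrepaired normexp 3 and 17. With quantile normalization and with cyclic loess it stayed 9 and 11. Srxn1, which restores oxidised peroxiredoxins, had signals of 40.1 and 35.9 on the controls and 82.8 and 157 on the EnhDel arrays (1.69 ± 0.33, adjusted p = 0.253). Prdx4, the peroxiredoxin of the secretory pathway, had 2184 and 2663 against 1507 and 1698 (-0.48 ± 0.15, adjusted p = 0.392), and Sod1, the cytosolic superoxide dismutase, was 0.20 ± 0.15 above the controls (adjusted p = 0.672).

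Factors known to act on oxidase genes gave 4 of 13 above and 9 below 0, with a median of -0.21 (with Cebpa itself in the list). Without EnhDel replicate 2 the split was 6 and 7 and the median -0.02, and without EnhDel replicate 1 the median was -0.35. Spi1, which encodes PU.1, had signals of 130 and 129 on the controls and 75.2 and 137 on the EnhDel arrays (-0.24 ± 0.30, adjusted p = 0.805), so its EnhDel values lay on either side of the controls. Irf8, a partner of PU.1 in myeloid and B cells, was at 288860 and 290293 against 259633 and 255451 (-0.06 ± 0.16, adjusted p = 0.907), and its normalized groups overlapped. Cebpb, a relative of Cebpa, was higher on both EnhDel arrays (0.57 ± 0.17, adjusted p = 0.382).

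The marker lists of other cells that use the oxidase moved as follows, and their part in the members' values was not tested. A summed level weights each gene by the brightness of its probe, so it compares arrays for a list and does not rank its genes. Of 12 tested monocyte and macrophage markers, 11 were below 0, with a median of -2.33, and their summed level in multiples of the array's 75th percentile was 19.5 to 22.7 on the controls and 8.08 to 9.27 on the EnhDel arrays. Fn1 was above background on no EnhDel array and at least 33.2-fold lower (adjusted p = 0.0708); Ms4a6c (-2.32 ± 0.20, adjusted p = 0.129) and Klf4 (-2.35 ± 0.23, adjusted p = 0.154) were lower on both. All 5 members had differences above 0 on the same arrays. Of 10 tested neutrophil markers 4 were above and 6 below 0 (median -1.04; summed level 109.8 to 115.7 on the controls, 79.3 and 119.6 on EnhDel replicates 1 and 2). Most of that sum came from Csf3r, the G-CSF receptor (89.01 and 91.00 on the controls, 76.9 and 107.8 on EnhDel replicates 1 and 2), and the rest of the list summed to 20.7 and 24.7 on the controls and to 2.48 and 11.8 on EnhDel replicates 1 and 2. The median was -0.30 without EnhDel replicate 1, -1.63 without EnhDel replicate 2, -0.40 with repaired normexp and 0.10 with unrepaired normexp. By the smallest p, Elane, a granule protease, was lower (-1.05 ± 0.34, adjusted p = 0.407), and Lcn2, dim with signals of 32.3 to 68.0 (0.83 ± 0.21, adjusted p = 0.325), and Padi4 (0.84 ± 0.31, adjusted p = 0.446) were higher. Larger differences, with more spread, were those of the granule proteins Ctsg (-4.05 ± 2.07), Mpo (-2.90 ± 1.24) and Prtn3 (-2.44 ± 1.24). S100a8 (-1.10 ± 0.59) and S100a9 (-1.04 ± 0.50) were also lower. Each of these genes had groups apart, and none had an adjusted p under 0.05. Of the 10 tested markers, 3 lay wholly above and 6 wholly below the controls, against 28.6% and 15.5% of all genes. Ltf, Ngp, Mmp8 and Mmp9 were above background on no array.

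Of 11 tested dendritic cell markers 5 were above and 6 below 0 (median -0.03; summed level 582 to 636 on the controls, 655 to 693 on the EnhDel arrays). Flt3, the receptor of early progenitors and dendritic cells, was lower (-0.61 ± 0.16, adjusted p = 0.341), and Cd74 (0.69 ± 0.19, adjusted p = 0.351) and H2-Aa (1.09 ± 0.43, adjusted p = 0.462), of antigen presentation, were higher. Of 11 B-lineage markers 8 were below 0 (median -1.02). Ebf1 was at -2.34 ± 0.53 (limma, adjusted p = 0.301), Cd79a at -0.79 ± 0.20 (adjusted p = 0.322) and Igll1 at -3.40 ± 0.86 (adjusted p = 0.326). In this list 8 lay wholly below and 1 wholly above the controls, against 15.5% and 28.6% of all genes. The summed level was 166.7 to 170.0 on the controls and 175.1 and 140.2 on EnhDel replicates 1 and 2. Blnk, whose groups overlapped, added most to it (77.3 and 70.7 on the controls, 83.1 and 73.6 on EnhDel replicates 1 and 2). The rest summed to 92.7 and 96.0 on the controls and to 92.0 and 66.7 on EnhDel replicates 1 and 2. Of 9 T and NK cell markers 8 were above 0 (median 1.06; summed level 11.2 to 13.2 on the controls, 20.8 and 34.0 on EnhDel replicates 1 and 2). Gzmb was at least 9.91-fold higher (adjusted p = 0.183), Cd3g was at 1.06 ± 0.14 (adjusted p = 0.195) and Tcf7 at 2.18 ± 0.53 (adjusted p = 0.321). Of 6 eosinophil, basophil and mast cell markers 5 were above 0 (median 0.50; summed level 0.54 to 0.61 on the controls, 0.55 and 2.24 on EnhDel replicates 1 and 2); without EnhDel replicate 2 the split was 3 and 3 and the median -0.03, and without EnhDel replicate 1 the median was 1.36. The smallest p there were those of Gata2 (1.05 ± 0.46, adjusted p = 0.49), Cpa3 (1.29 ± 0.77, adjusted p = 0.603) and Mcpt8 (-1.56 ± 1.15, adjusted p = 0.673). Cybb, Cyba and Ncf1 were highest on EnhDel replicate 2, and Ncf4 and Rac2 on EnhDel replicate 1. Among the marker lists, EnhDel replicate 2 was highest in the summed T and NK, dendritic, and eosinophil, basophil and mast cell lists. This held with and without the gene that added most to each sum. In the neutrophil list EnhDel replicate 2 was highest only with Csf3r, and in the B-lineage list it was lowest (140.2). A link between these sums and the members was not tested.

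**Figure D4:**
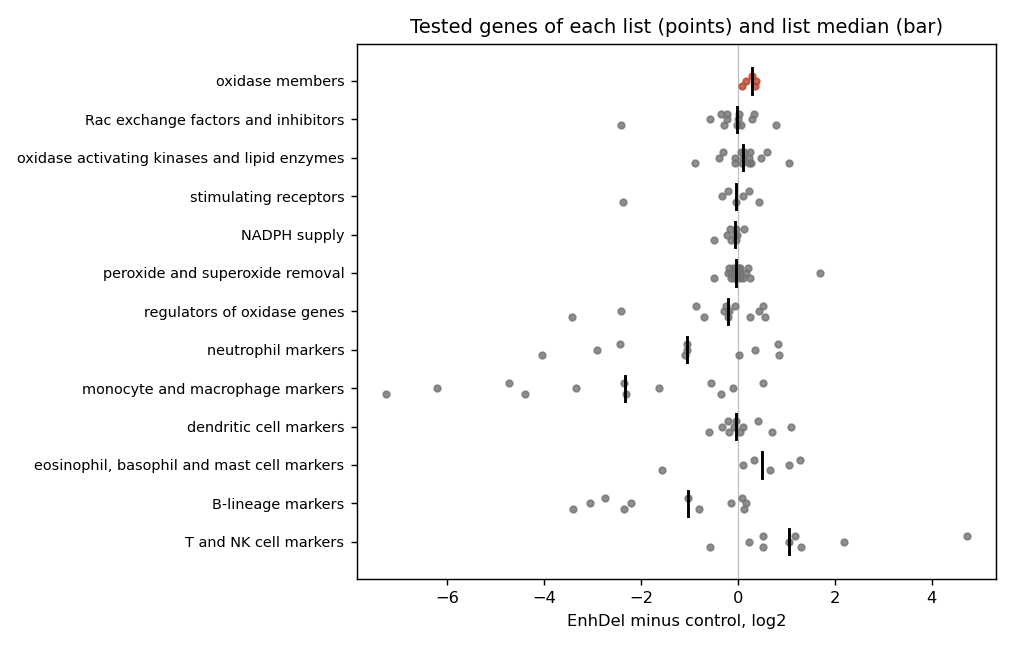
Log2 difference between EnhDel and control (x axis) of each tested gene (points) with list medians (bars), for the members in red and 12 other lists in grey. The members lie between 0.09 and 0.37 around a median of 0.30, while the monocyte list has a median of -2.33; fitted values are drawn for Fn1, Lyz2, Dock1 and Gzmb, for which the background gives only a bound, and the list medians are the same with these genes at their bounds.

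The members differed in how their values were spread over the 4 arrays. By the distance between profiles centred on each gene's own mean, Cybb and Cyba were the closest pair (0.16 on the log2 scale) and Cybb and Rac2 the farthest (0.45). The nearest of all tested genes were Ablim3, B4galnt1 and Carmil3 for Cybb (distance 0.03 to 0.04), Fchsd1, ND2 and Zbtb4 for Cyba (0.03), and Lin37, Dlgap4 and Traf6 for Ncf1 (0.01 to 0.02). For Ncf4 they were Cbr1, Treml1 and Pnck (0.03), and for Rac2 they were Rbm19, Wac and Arid4a (0.01). Such neighbours are common with 4 arrays: within 0.1 of a member lay 54 genes for Ncf4, 114 for Cyba, 115 for Cybb, 324 for Ncf1 and 612 for Rac2.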

How the data were processed

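RNA of 2 control and 2 EnhDel preproB samples was read on 1-colour Agilent arrays. Scanner files deposited by the authors hold the intensity of each spot from Agilent Feature Extraction 10.7.3.1 with probe positions in mm9, per the file headers. A log2 table of 31597 rows, also deposited by the authors, served as an alternative; how it was made is not given in the sources used here.

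Control and outlier spots were left out. The log2 processed signal was averaged per probe, and each array's 75th percentile was subtracted. Probes were named by accession through RefSeq (GRCm38.p6), and 26581 of 39429 matched. The brightest probe stood for a gene, tested if well above background on both arrays of a group (19394 genes). Groups were compared with limma 3.58.1 under R 4.3.3 (lmFit, eBayes, Benjamini-Hochberg, threshold 0.05). The fit was tested on simulated arrays with known log2 changes. It called 0 of 50 genes changed by 1, 26 of 50 changed by 2 and 41 of 50 changed by 4. It also called 4 genes that were not changed. The simulation gave both groups the same spread, while the real EnhDel replicates differed more than the controls (SD 0.611 against 0.333). The members' differences, at most 0.37, were smaller than any simulated, so the lack of a call says little about changes of that size. Beside members, relatives, regulators and sex-linked genes, the 3 smallest p of each list and the 3 nearest profiles of each member are named; other genes named were chosen after their values were seen. Some genes the rule takes are not reported here. A bound compares the bright group's mean with the lowest signal well above background. The members and lists were chosen with earlier results of these data known. Alternatives were 3 normalizations, 2 background corrections, 2 filters, a probe rule, the deposited values, a replicate block, a variance option and each array left out; counts of members apart were added after seeing the data.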

Additional observations from a re-analysis of the deposited data

How the results depend on the processing

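Of 75 member differences over 15 alternatives, 71 kept their sign and none passed the threshold. Much of this was fixed in advance. The 2 filters, the replicate block and the variance option left every member's estimate unchanged, and the probe rule changed only that of Cyba. For the 4 members with groups apart, leaving out an array could not turn the sign. The reversals were Ncf1 (-0.14) and Rac2 (-0.22) with unrepaired normexp, and Ncf1 (-0.028) and Rac2 (-0.12) with median scaling; a local background of up to 10214 at 6 spots of EnhDel replicate 1 distorted the former, and with these repaired all 5 were above 0. The members with both groups apart and EnhDel higher were 0 with unrepaired normexp (35.4% of all genes) and 1 with median scaling (13.1%), against 4 (28.6%); with median scaling 1 member was apart and lower. Genes past the threshold were 0 in the main setting (2171 at an unadjusted p under 0.05, limma), 23 with median scaling, 2 with the mean of a gene's probes, and between 1 and 2938 with each array left out (1 without control replicate 1, 6 without control replicate 2, 47 without EnhDel replicate 2, 2938 without EnhDel replicate 1). With the replicate block the count was 0, and the block changed no member's call. Deviations of same-numbered samples were not correlated over all genes (r = -0.02). That value cannot show whether such samples were handled together. In the fits with an array left out, a lone sample is assumed to vary like the other group. Signals under 11.6 to 14.4 were not well above background, and 2 arrays per group limit the precision.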
